A study of Mus musculus with 12 samples.

Results

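The genes described here are 10 receptors, ligands and signalling genes of the IL-22, IL-20 and IL-6 cytokine families: the ligands Il19, Il24 and Il6, the receptor chains Il22ra1, Il10rb, Il20ra, Il20rb, Il6ra and Osmr, and the transcription factor gene Stat3. They were taken by symbol from a table of 55315 gene symbols, and all 10 had enough counts to be among the 16677 genes tested. The RNA came from keratinocytes of mouse skin, 3 days after wounding, taken from a ring of 0.25 mm beside the wound. Live cells that carried Epcam and integrin a6 were sorted, without cells that carried CD45, CD31 or CD117, from pools of 2 or 3 mice for each group and sequencing run. They were split by integrin a5, the product of Itga5, into A5-positive cells, which the submitters call the migrating tongue, and A5-negative cells, which they call the wound edge. Mice had a wild-type genotype or were deficient in RORgt and labelled as a GFP knock-in, so that the 4 groups were wild-type A5-negative, wild-type A5-positive, RORgt-deficient A5-negative and RORgt-deficient A5-positive, with 3 libraries each. The labels give no age or strain. The question of the study is what IL-17, a cytokine of lymphocytes that depend on RORgt, does in the response of wounded epithelium to hypoxia.

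IL-22, IL-19, IL-20 and IL-24 belong to the IL-10 superfamily. IL-22 is made mainly by lymphocytes and innate lymphoid cells and signals through IL-22RA1 with IL-10RB. IL-19, IL-20 and IL-24 can be made by keratinocytes and signal through IL-20RA with IL-20RB, and IL-20 and IL-24 also through IL-22RA1 with IL-20RB. IL-6 binds IL-6RA and then gp130, the product of Il6st, and oncostatin M binds OSMR with gp130. All of these receptors act through JAK kinases and STAT3, which drives keratinocyte migration and antimicrobial genes and its own inhibitor Socs3.

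Promoter sequence was matched by symbol for 8 of the 10 genes (RefSeq, build GRCm38.p6), and Il10rb and Il24 were not matched. Of these, 4 are shown because the results below turn on these genes: Il19 and Il6ra as a ligand and a receptor that differed between A5-positive and A5-negative cells in opposite directions, and Il22ra1 and Il6 as the genes with the widest differences between genotypes in A5-positive cells. Each is the 250 bases before the start of the gene, on the strand of the gene. Capitals mark TTCNNNGAA, a STAT motif, and ACGTG or GCGTG, the cores of the hypoxia response element, each searched on both strands.
Il19 (chr1:130940116-130940365, minus strand): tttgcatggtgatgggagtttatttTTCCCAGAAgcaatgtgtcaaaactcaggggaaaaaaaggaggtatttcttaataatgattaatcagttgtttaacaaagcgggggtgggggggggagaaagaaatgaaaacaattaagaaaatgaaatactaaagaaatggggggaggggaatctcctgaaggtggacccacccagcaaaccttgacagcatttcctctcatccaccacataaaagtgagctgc
Il6ra (chr3:89913197-89913446, minus strand): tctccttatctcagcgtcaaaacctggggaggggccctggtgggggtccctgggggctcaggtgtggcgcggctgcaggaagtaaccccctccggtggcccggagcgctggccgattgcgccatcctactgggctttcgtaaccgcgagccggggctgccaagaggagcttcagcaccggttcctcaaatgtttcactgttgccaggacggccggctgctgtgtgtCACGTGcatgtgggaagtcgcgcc
Il22ra1 (chr4:135727909-135728158, plus strand): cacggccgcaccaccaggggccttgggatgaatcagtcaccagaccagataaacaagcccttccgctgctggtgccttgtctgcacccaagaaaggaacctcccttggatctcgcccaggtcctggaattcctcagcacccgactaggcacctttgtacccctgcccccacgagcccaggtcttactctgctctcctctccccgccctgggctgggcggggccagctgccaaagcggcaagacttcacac
Il6 (chr5:30012864-30013113, plus strand): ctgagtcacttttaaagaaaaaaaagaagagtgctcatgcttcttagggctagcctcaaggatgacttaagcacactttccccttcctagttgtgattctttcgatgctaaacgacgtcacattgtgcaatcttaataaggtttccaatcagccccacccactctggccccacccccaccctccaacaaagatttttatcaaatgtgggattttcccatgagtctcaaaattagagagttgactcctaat
In the window from 250 bases before to 50 bases after the start, Il19 alone of the 8 genes held TTCNNNGAA, as TTCCCAGAA at position -225, and 8.3% of 32851 promoters of that length held it. Il6ra alone held ACGTG, on both strands at positions -24 and -23, as did 19.6% of promoters. Il20ra, Il6ra, Osmr and Stat3 held GCGTG, as did 32.4% of promoters, and some of these matches lay after the start. Such matches describe the letters of these windows and show no binding.

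The libraries held 29293687 to 74563616 counts. Itga5 followed the sort, with group means, as CPM (counts scaled to library size and TMM factors), of 46.8 for wild-type A5-negative, 94.4 for wild-type A5-positive, 54.2 for RORgt-deficient A5-negative and 122 for RORgt-deficient A5-positive cells. The summed level of 9 keratinocyte markers, among them Krt5, Krt14 and Epcam, was 35409 to 77337 CPM of the total counts. The summed level of 12 fibroblast markers was 87.9 to 541 in the A5-negative and 4114 to 16418 in the A5-positive libraries, and none of the 12 was at 0 in any library. The sum of 14 macrophage and monocyte markers reached 1588 CPM in wild-type A5-negative library 1, against 93.4 to 648 CPM in the other libraries, and the sum of 8 Langerhans and dendritic cell markers was 3884 CPM there and 313 to 1268 CPM elsewhere. The sum of 8 T cell markers was 3.19 to 21.5 CPM, with Cd3d at 0 in 11 of 12 libraries. The part of these cells in the results below was not tested. Where a marker value is set beside a result, it describes the libraries only. The RNA is from bulk samples, in which fewer cells of a type and less RNA per cell cannot be told apart.

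Levels were compared per kilobase of exons, which allows different genes to be set side by side. Stat3, Socs3 and the kinase gene Jak1 stood far above the cytokines and their receptors. The kinase genes Jak2 (15.6 to 28.2 CPM per kb), Tyk2 (5.39 to 6.95) and Jak3 (1.62 to 2.29) lay within the range of the receptors. Stat3 had group means of 91.3 to 119 CPM per kb and its inhibitor Socs3 159 to 236. Among the receptor chains described here Il20rb had 18.1 to 30.7, a mean above that of Il6st and Osmr except in RORgt-deficient A5-positive cells, where Il6st (25.5) and Osmr (18.4) were higher. Il6st had 18.0 to 28.9, Osmr 13.7 to 22.4, Il6ra 10.4 to 18.3 and Il20ra 7.85 to 14 CPM per kb. Il10rb had 4.16 to 5.57 and Il22ra1, the chain that confers the response to IL-22, 0.73 to 1.92 CPM per kb, the lowest mean of the 10 genes in all 4 groups. In wild-type A5-negative cells the order was Stat3 (107 ± 11.6, SD, n = 3), Il20rb (30.7 ± 1.23), Osmr (18.6 ± 3.48), Il6ra (14.6 ± 0.22), Il20ra (11.1 ± 3.34), Il24 (9.47 ± 2.32), Il6 (5.77 ± 0.85), Il10rb (5.34 ± 2.14), Il19 (2.0 ± 0.48) and Il22ra1 (1.3 ± 0.18). Of the neighbours in that order, Il20ra and Il24, and Il6 and Il10rb, differed by less than the larger of their SDs.

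The ligands of these receptors were unequally present. Il22 had 0 counts in all 12 libraries, which allows at most 0.0857 to 0.101 CPM in the shallowest library of each group (3 counts, counting error only). Il20, which lies between Il24 and Il19 on chromosome 1, had 0 to 24 counts per library. Il19 and Il24 themselves were measured in each library, as were Il6 and Osm, the gene for oncostatin M.

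**Figure D1:**
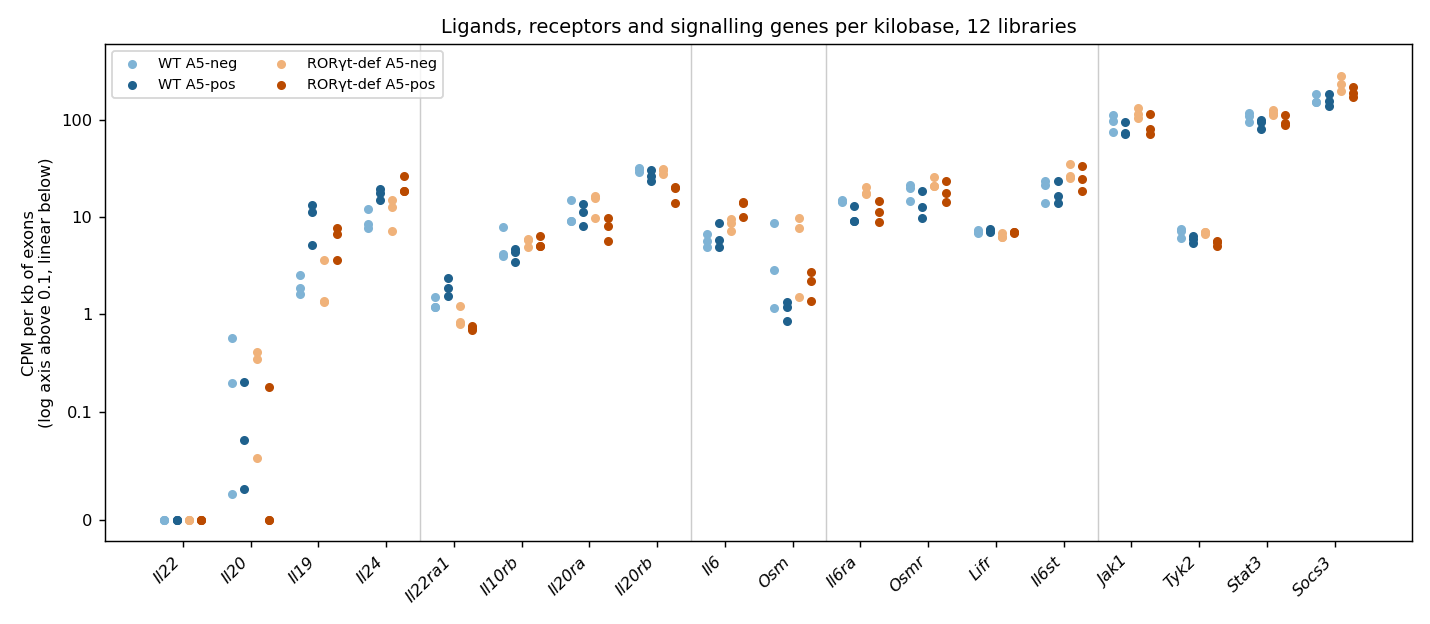
Level per kilobase of exons (CPM per kb, log axis above 0.1 and linear below) of ligand, receptor and signalling genes, 1 point per library, coloured by group. Il22 sits at 0 in all 12 libraries, Il20 is at the foot of the axis, and Stat3, Jak1 and Socs3 lie highest.

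A5-positive and A5-negative cells were compared first, which sets the migrating tongue against the wound edge. Il19, an IL-20 family ligand, rose in A5-positive cells of wild-type mice, and Il20rb, the shared receptor chain of that family, fell in A5-positive cells of RORgt-deficient mice. In wild type 1 of the 10 genes rose and 0 fell, where 3.45% of the genes tested were called (3.12% higher and 0.33% lower). In RORgt-deficient mice 0 rose and 1 fell, where 5.52% were called (4.56% higher and 0.965% lower). At an unadjusted p under 0.05 the counts were 4 of 10 in wild type, against 20.5% of all genes, and 6 of 10 in RORgt-deficient mice, against 21.8%. DESeq2 called 2 and 4 of the 10, where it called 1454 and 1723 of the 16677 genes tested. The median change of the 10 genes was -0.11 in wild type and -0.29 in RORgt-deficient mice on the log2 scale, beside 0.03 and 0.00 over all genes tested.

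The labels number the libraries 1 to 3 in each group, and libraries of the same number deviated together, so a fit with that number as a block is given wherever it changes a call. With the block 2 of the 10 genes rose and 2 fell in wild type, where 14.4% of all genes were called (8.76% higher and 5.59% lower), and 2 rose and 3 fell in RORgt-deficient mice, where 17.6% were (10.1% higher and 7.54% lower). The A5-positive and A5-negative libraries did not overlap for 4 of the 10 genes in wild type, against 25% of all genes, and for 7 of 10 in RORgt-deficient mice, against 25.6%. Il19 and Il24 were the 2 that rose in both genotypes. Il6ra was among those that fell in both, with Osmr in wild type and with Il20ra and Il20rb in RORgt-deficient mice.

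**Figure D2:**
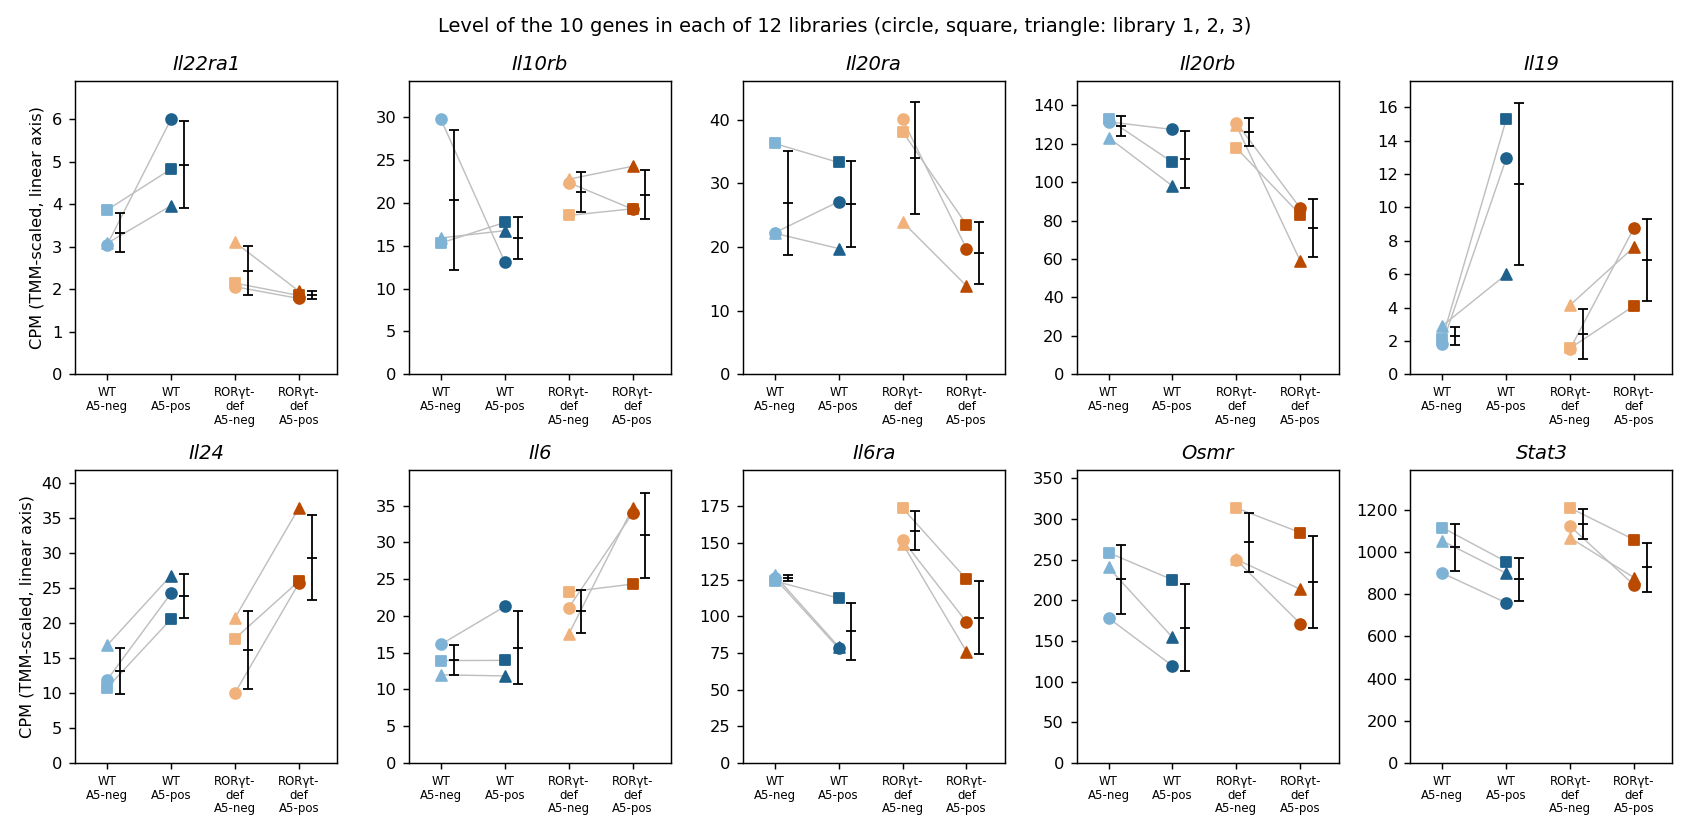
Level of each of the 10 genes (CPM scaled by TMM factors, linear axis from 0) in the 12 libraries, with grey lines joining A5-negative and A5-positive libraries of the same genotype and number, and black bars for the mean ± SD of 3 libraries. Il19 and Il24 climb from A5-negative to A5-positive along each line, while Il20rb, Il6ra, Osmr and Stat3 descend along each line. The descent of Il20rb is slight in wild-type number 1 (log2 ratio -0.04).

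Il19 (GRCm38 chromosome 1, 130932656 to 130940115, protein coding) encodes a ligand that keratinocytes and macrophages make. Its level was 1.85, 2.15 and 2.91 CPM in wild-type A5-negative libraries 1, 2 and 3 and 12.9, 15.3 and 5.99 CPM in wild-type A5-positive libraries. RORgt-deficient A5-negative libraries had 1.53, 1.58 and 4.16 CPM and A5-positive ones 8.78, 4.11 and 7.63 CPM. The wild-type groups did not overlap, and the RORgt-deficient groups met at 4.16 and 4.11 CPM. The rise in wild type was 2.31 ± 0.47 (log2 fold change ± SE, edgeR quasi-likelihood, adjusted p = 0.0205). In RORgt-deficient mice the difference was 1.51 ± 0.46 (adjusted p = 0.0841), and with the block it passed (1.56 ± 0.46, adjusted p = 0.0415). The wild-type call ended without any 1 of wild-type A5-negative libraries 1, 2 and 3 (adjusted p = 0.0720, 0.0766 and 0.0715) or of A5-positive libraries 1 and 2 (0.0679 and 0.0659), and with the block only without A5-positive library 2 (0.0573).

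Il24 (chromosome 1, 130882074 to 130887454, protein coding) lies 19.5 kb from Il20, which lies 21.2 kb from Il19. Its level was 11.9, 10.7 and 16.8 CPM in wild-type A5-negative and 24.2, 20.5 and 26.8 CPM in wild-type A5-positive libraries 1, 2 and 3. Among RORgt-deficient libraries, A5-negative ones had 9.99, 17.8 and 20.7 CPM and A5-positive ones 25.6, 25.9 and 36.4 CPM. In both genotypes every A5-positive library lay above every A5-negative one, which 15.9% of all genes did in this direction in wild type and 14.3% in RORgt-deficient mice. The difference was 0.86 ± 0.27 in each genotype (edgeR quasi-likelihood, adjusted p = 0.103 in wild type and 0.0876 in RORgt-deficient mice), and with the block it passed in both (0.89 ± 0.19, adjusted p = 0.0136, and 0.88 ± 0.19, adjusted p = 0.0105). With the block the wild-type call ended without library 2 or 3 of the A5-negative or 1 of the A5-positive group (adjusted p = 0.0582, 0.0641 and 0.0785), and the RORgt-deficient call held without each single library.

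The fibroblast marker sum was higher in every A5-positive than in every A5-negative library, as were Il19 in wild type and Il24 in both genotypes. The fibroblast marker sum was 4114, 6164 and 8493 CPM in wild-type A5-positive libraries 1, 2 and 3, and 15239, 9560 and 16418 CPM in the RORgt-deficient ones. Il24 was highest in library 3 in both of these groups, as the sum was. Il19 was lowest in library 2 in RORgt-deficient mice, as the sum was, but in wild type it was lowest in library 3, where the sum was highest. The part of fibroblasts in these differences was not tested.

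Il20rb (chromosome 9, 100457719 to 100486788, protein coding) encodes the chain that all 3 IL-20 family ligands use. It had 131, 133 and 123 CPM in wild-type A5-negative and 127, 110 and 98.0 CPM in wild-type A5-positive libraries. The A5-negative libraries of RORgt-deficient mice had 131, 118 and 129 CPM and the A5-positive ones 86.4, 83.0 and 59.0 CPM. The RORgt-deficient A5-positive libraries were the lowest 3 of the 12. The fall in RORgt-deficient mice was -0.73 ± 0.15 (edgeR quasi-likelihood, adjusted p = 0.0156), and the difference in wild type was -0.21 ± 0.15 (adjusted p = 0.458). Between the same RORgt-deficient groups the fibroblast marker sum went from 87.9 to 541 CPM up to 9560 to 16418 CPM, and its part in the fall was not tested. The call ended without library 1 or 3 of the A5-negative or 3 of the A5-positive group (adjusted p = 0.0555, 0.0580 and 0.0572) and with the 6 compared libraries alone (0.0548), and with the block it held without each single library.

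Il20ra (chromosome 10, 19712570 to 19760053, protein coding) encodes the partner chain of Il20rb. It had 22.2, 36.2 and 22.2 CPM in wild-type A5-negative and 27.1, 33.3 and 19.8 CPM in wild-type A5-positive libraries, which overlapped. RORgt-deficient A5-negative libraries had 40.0, 38.1 and 23.9 CPM and A5-positive ones 19.8, 23.5 and 13.9 CPM, with no overlap and with 23.9 and 23.5 CPM as their nearest libraries. The difference was -0.01 ± 0.28 in wild type (edgeR quasi-likelihood, adjusted p = 0.989) and -0.84 ± 0.28 in RORgt-deficient mice (adjusted p = 0.114), where it passed with the block (-0.84 ± 0.15, adjusted p = 0.0036). That call held without each single library.

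Il22ra1 (chromosome 4, 135728172 to 135752140, protein coding) had low levels throughout, with 230 to 622 counts in all per group. It had 3.05, 3.87 and 3.08 CPM in wild-type A5-negative and 6.0, 4.83 and 3.97 CPM in wild-type A5-positive libraries. RORgt-deficient libraries 1, 2 and 3 had 2.06, 2.15 and 3.11 CPM when A5-negative and 1.79, 1.86 and 1.96 CPM when A5-positive. A5-positive cells thus had the higher values in wild type and the lower ones in RORgt-deficient mice, with no overlap in either. The differences were 0.57 ± 0.25 (edgeR quasi-likelihood, adjusted p = 0.228) and -0.38 ± 0.26 (adjusted p = 0.399), and neither passed with the block (0.157 and 0.346).

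Il10rb (chromosome 16, 91406164 to 91425834, protein coding) encodes the chain shared by the receptors for IL-10, IL-22 and interferon lambda. Its level was 29.7, 15.3 and 15.9 CPM in wild-type A5-negative and 13.1, 17.7 and 16.8 CPM in wild-type A5-positive libraries. RORgt-deficient A5-negative libraries had 22.4, 18.5 and 22.8 CPM and A5-positive ones 19.3, 19.3 and 24.3 CPM. Wild-type A5-negative library 1 stood highest of the 12. It was also the library with the highest marker sums for macrophages and monocytes, for Langerhans and dendritic cells and for T cells. The differences of -0.36 ± 0.24 and -0.02 ± 0.24 did not pass (edgeR quasi-likelihood, adjusted p = 0.415 and 0.970), and the wild-type one turned to 0.02 without that library.

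**Figure D3:**
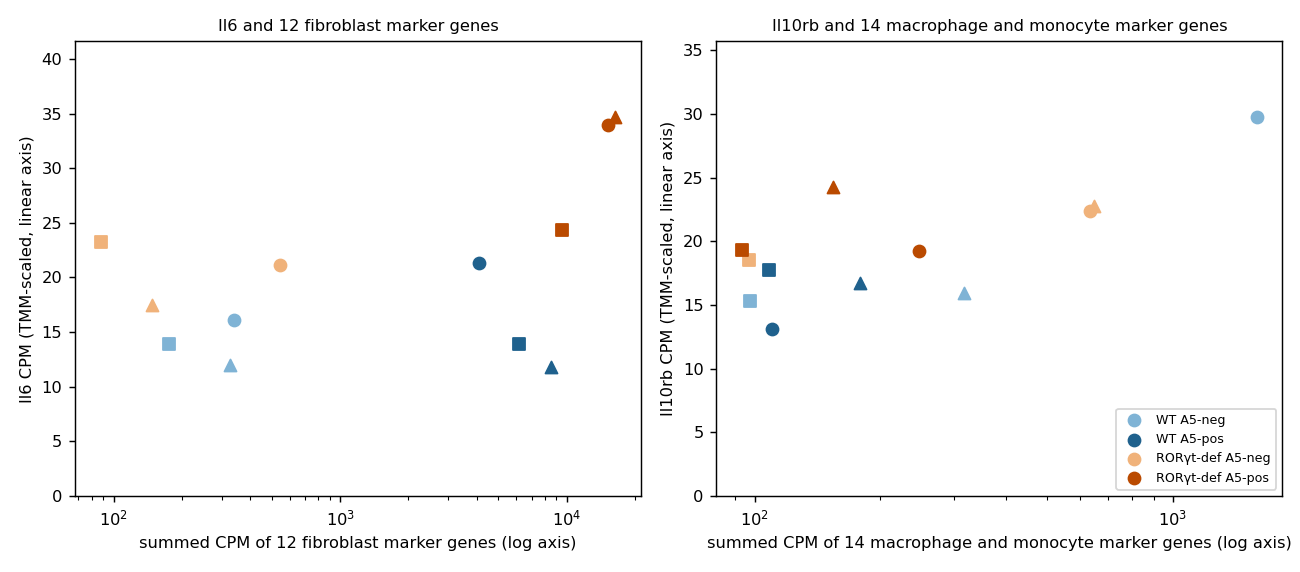
Left, Il6 level (CPM scaled by TMM factors, linear axis) against the summed level of 12 fibroblast markers (CPM of total counts, log axis); right, Il10rb level against the sum of 14 macrophage and monocyte markers. Each point is 1 library, with circle, square and triangle for numbers 1, 2 and 3. Wild-type A5-negative library 1 is the point at the upper right of the Il10rb panel, and the 3 RORgt-deficient A5-positive libraries are highest in both the fibroblast sum and Il6.

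Il6 (chromosome 5, 30013114 to 30019981, protein coding) encodes the founding ligand of its family. It had 16.1, 13.9 and 12 CPM in wild-type A5-negative and 21.3, 14 and 11.8 CPM in wild-type A5-positive libraries. Among RORgt-deficient libraries, A5-negative ones had 21.1, 23.3 and 17.5 CPM and A5-positive ones 34.0, 24.3 and 34.7 CPM. The wild-type groups overlapped and the RORgt-deficient groups did not. The difference was 0.17 ± 0.23 in wild type (edgeR quasi-likelihood, adjusted p = 0.704) and 0.59 ± 0.23 in RORgt-deficient mice (adjusted p = 0.163, and 0.0537 with the block).

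Il6ra (chromosome 3, 89864059 to 89913196, protein coding) encodes the chain that binds IL-6. It had 126, 124 and 128 CPM in wild-type A5-negative and 78.2, 112 and 79.3 CPM in wild-type A5-positive libraries. Among RORgt-deficient libraries, A5-negative ones had 152, 174 and 150 CPM and A5-positive ones 96.2, 125 and 76.0 CPM. Every A5-positive library lay below every A5-negative one of its genotype, as 9.12% of all genes did in this direction in wild type and 11.3% in RORgt-deficient mice. The fibroblast marker sum was higher in each of these A5-positive libraries, and its part was not tested. The difference was -0.49 ± 0.19 in wild type (edgeR quasi-likelihood, adjusted p = 0.167) and -0.68 ± 0.19 in RORgt-deficient mice (adjusted p = 0.0562), and both passed with the block (-0.51 ± 0.13, adjusted p = 0.0292, and -0.70 ± 0.13, adjusted p = 0.00638). With the block the wild-type call held only without A5-negative library 2 (0.0186) among the 6 libraries left out in turn (0.0608 to 0.145 for the other 5), and the RORgt-deficient call held without each.

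Osmr (chromosome 15, 6813577 to 6874969, protein coding) encodes the receptor chain for oncostatin M and IL-31. It had 178, 259 and 240 CPM in wild-type A5-negative and 120, 225 and 155 CPM in wild-type A5-positive libraries. The values for RORgt-deficient mice were 250, 314 and 250 CPM (A5-negative) and 171, 283 and 214 CPM (A5-positive). The groups overlapped, but each A5-positive library lay below the A5-negative library of its number. The difference of -0.44 ± 0.24 in wild type (edgeR quasi-likelihood, adjusted p = 0.327) passed with the block (-0.47 ± 0.12, adjusted p = 0.0268), and that of -0.28 ± 0.24 in RORgt-deficient mice did not (0.514, and 0.0933 with the block). With the block the wild-type call ended without library 1 or 3 of the A5-negative or 1 or 3 of the A5-positive group (adjusted p = 0.0762, 0.127, 0.117 and 0.0541).

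Stat3 (chromosome 11, 100885098 to 100939540, protein coding) had the highest level of the 10 genes in every library. It had 899, 1115 and 1052 CPM in wild-type A5-negative and 758, 953 and 898 CPM in wild-type A5-positive libraries. RORgt-deficient mice had 1121, 1207 and 1065 CPM in A5-negative libraries, against 843, 1057 and 878 CPM in A5-positive ones. The RORgt-deficient groups did not overlap and the wild-type groups did. The differences of -0.23 ± 0.14 and -0.29 ± 0.14 did not pass (edgeR quasi-likelihood, adjusted p = 0.373 and 0.257, and 0.128 and 0.0566 with the block).

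**Figure D4:**
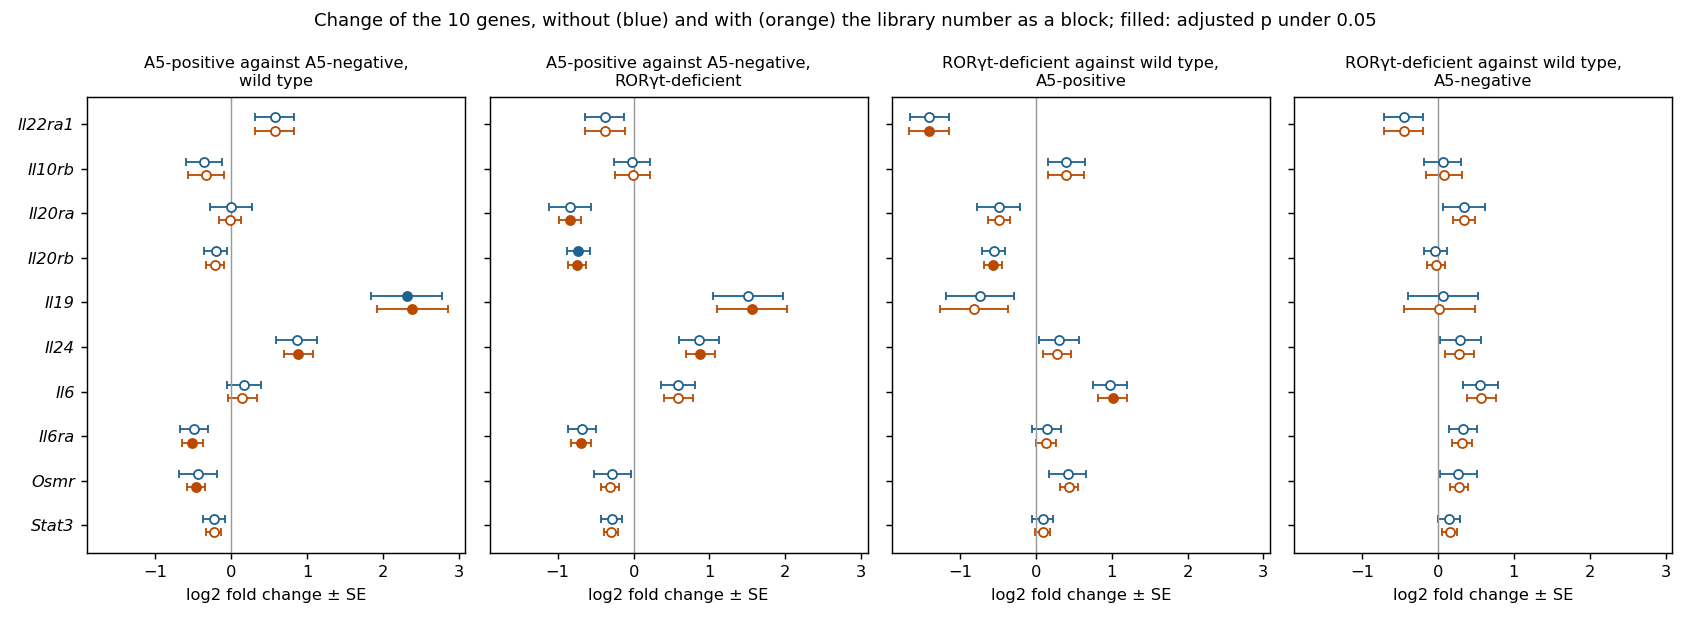
Log2 fold change ± SE of the 10 genes in 4 comparisons, from the fit without (blue) and with (orange) the library number as a block, with filled points for an adjusted p under 0.05. Without the block Il19 in wild type and Il20rb in RORgt-deficient mice are the filled points, and the panel for genotype in A5-negative cells has none.

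RORgt-deficient and wild-type mice were compared within A5-positive and within A5-negative cells, which asks how loss of RORgt bears on each fraction. In A5-positive cells the levels of Il22ra1 and Il20rb were lower and that of Il6 was higher in RORgt-deficient mice. By edgeR the 3 differences passed only with the block. Without the block 0 of the 10 genes were called in either fraction (edgeR quasi-likelihood), where 0.006% of all genes were called in each. At an unadjusted p under 0.05 there were 3 of 10 in A5-positive cells, against 15% of all genes, and 1 of 10 in A5-negative cells, against 5.09%. DESeq2 called 3 in A5-positive and 0 in A5-negative cells, where it called 493 and 21 of the 16677 genes tested. With the block 1 gene rose and 2 fell in A5-positive cells, where 4.02% of all genes were called (2.26% higher and 1.76% lower), and 0 were called in A5-negative cells. The median change of the 10 genes was 0.12 in A5-positive and 0.21 in A5-negative cells, beside 0.00 over all genes in both.

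Il22ra1 had the largest difference of the 10 genes, with 3.97 to 6.0 CPM in wild-type and 1.79 to 1.96 CPM in RORgt-deficient A5-positive libraries. The groups did not overlap for Il22ra1 and Il20rb, both lower in RORgt-deficient mice as were 9.01% of all genes, nor for Il6 and Il10rb, both higher. The keratinocyte marker sum also ran lower in these RORgt-deficient libraries, with overlap (40604 to 55960 against 53220 to 77337 CPM). Its part in these differences was not tested. For Il22ra1 the log2 ratio was -1.75, -1.38 and -1.02 within library numbers 1, 2 and 3. The difference was -1.40 ± 0.26 (edgeR quasi-likelihood, adjusted p = 0.178), and with the block it passed (-1.41 ± 0.26, adjusted p = 0.0334). That call held without wild-type library 3 (0.0251) and ended without any other of the 6 A5-positive libraries (0.0728 to 0.158). In A5-negative cells the difference was -0.45 ± 0.25 (adjusted p = 0.779), and the groups overlapped.

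Il6 had 11.8 to 21.3 CPM in wild-type and 24.3 to 34.7 CPM in RORgt-deficient A5-positive libraries, with log2 ratios of 0.67, 0.80 and 1.55 within numbers 1, 2 and 3. The difference was 0.98 ± 0.23 (edgeR quasi-likelihood, adjusted p = 0.178), and with the block it passed (1.01 ± 0.19, adjusted p = 0.0334). That call held without wild-type library 3 (0.0466) and ended without any other of the 6 libraries (0.0624 to 0.101). The summed fibroblast markers differed in the same direction between these groups, from 4114 to 8493 CPM in wild-type and from 9560 to 16418 CPM in RORgt-deficient libraries. In A5-negative cells, where that sum was 176 to 341 CPM in wild-type and 87.9 to 541 CPM in RORgt-deficient libraries, Il6 also lay higher in every RORgt-deficient library (17.5 to 23.3 against 12 to 16.1 CPM), with a difference of 0.56 ± 0.23 that did not pass (adjusted p = 0.779, and 0.220 with the block).

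Il20rb was the other gene that fell with the block in A5-positive cells, with a change of -0.56 ± 0.12 (edgeR quasi-likelihood with the block, adjusted p = 0.0393, and 0.190 without it). Its call ended without any 1 of the 6 libraries (0.0556 to 0.165). Il20ra had a like difference of -0.49 ± 0.28 and within-number ratios of -0.46, -0.50 and -0.51, and it did not pass (adjusted p = 0.421, and 0.0780 with the block). In A5-negative cells the differences of the receptor pair were -0.03 ± 0.15 for Il20rb and 0.34 ± 0.28 for Il20ra, and neither passed (adjusted p = 0.960 and 0.788).

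By edgeR none of the other genes passed between genotypes in A5-positive cells, with or without the block. DESeq2 with the block called more of the genes described here than edgeR with the block did. Il10rb lay higher in every RORgt-deficient library (0.40 ± 0.24, edgeR quasi-likelihood, adjusted p = 0.441), as 9.04% of all genes did. Osmr differed by 0.42 ± 0.24 (0.426, and 0.0647 with the block) and Il19 by -0.74 ± 0.45 (0.443). Il24, Il6ra and Stat3 differed by 0.30 ± 0.26, 0.14 ± 0.19 and 0.09 ± 0.14 (0.610, 0.747 and 0.793). In A5-negative cells Il6ra, at 150 to 174 against 124 to 128 CPM, was with Il6 the gene whose groups did not overlap, and both were higher in RORgt-deficient mice, as 7.33% of all genes were. Its difference was 0.33 ± 0.18 (adjusted p = 0.779). Il10rb, Il19, Il24, Osmr and Stat3 differed by 0.06 ± 0.24, 0.06 ± 0.46, 0.30 ± 0.27, 0.26 ± 0.24 and 0.15 ± 0.14 there (0.801 to 0.977).

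The interaction asks whether the A5 difference is unlike in the 2 genotypes. It called 0 of the 10 genes and 0% of all genes (edgeR quasi-likelihood). DESeq2 called 0 of the 10 and 8 of the 16677 genes tested. At an unadjusted p under 0.05 there were 2 of 10, against 2.75% of all genes. These were Il22ra1, with a difference between the A5 effects of -0.95 ± 0.36 (95% interval -1.73 to -0.17), and Il20rb, with -0.52 ± 0.21 (-0.99 to -0.05), and both had an adjusted p of 1. For Il20ra it was -0.83 ± 0.40 (-1.69 to 0.03). For Il24 it was 0.00 ± 0.38 (-0.82 to 0.82), where its A5 differences were 0.86 in both genotypes.

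The wider pathway was described by lists that include members among their genes. Of 7 IL-10 and IL-20 family ligands 5 were tested, and Il19 was the one that rose in wild type, where 3.12% of all genes did. Of 7 receptors 7 were tested, and Il20rb was the one that fell in RORgt-deficient mice, where 0.965% of all genes did. Il22ra2, which encodes the soluble inhibitor of IL-22, went from 16.8 ± 3.3 CPM to 9.54 ± 4.13 CPM between wild-type A5-negative and A5-positive cells (SD, n = 3) and fell only with the block (-0.89 ± 0.26, edgeR quasi-likelihood, adjusted p = 0.0461, and 0.314 without it). That call held only without A5-positive library 3 and ended without each of the other 5 wild-type libraries (0.0523 to 0.222).

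Of 10 IL-6 family ligands 7 were tested, and without the block none was called in any comparison (edgeR quasi-likelihood). At an unadjusted p under 0.05 there were 1 and 2 in the A5 comparisons of wild-type and RORgt-deficient mice and 3 and 1 in the genotype comparisons of A5-positive and A5-negative cells, beside 20.5%, 21.8%, 15% and 5.09% of all genes. DESeq2 called 1, 0, 1 and 0 of the 7, beside 1454, 1723, 493 and 21 of the 16677 genes tested. In A5-positive cells 6 of the 7 had higher estimates in RORgt-deficient mice, with a median of 0.84 beside 0.00 over all genes, and the groups of 4 did not overlap, against 18.1% of all genes. These 4 were Il6, the leukaemia inhibitory factor gene Lif (0.84 ± 0.30, edgeR quasi-likelihood, adjusted p = 0.244), Il11 (0.98 ± 0.42, 0.304) and Osm (0.91 ± 0.70, 0.550). Il11 had 124 counts in all in wild-type and 282 in RORgt-deficient A5-positive libraries. The fibroblast marker sum was also higher in every one of these RORgt-deficient libraries (9560 to 16418 against 4114 to 8493 CPM), and its part was not tested. Osm, a product of myeloid cells and T cells, had 19.7, 2.66 and 6.51 CPM in wild-type A5-negative libraries and was, like Il10rb, highest there in library 1. Unlike Il10rb, Osm reached a higher level in RORgt-deficient A5-negative libraries (3.47 to 22.3 CPM).

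Of 9 IL-6 family receptors 8 were tested, and without the block none was called (edgeR quasi-likelihood). In the same 4 comparisons 1, 3, 1 and 1 had an unadjusted p under 0.05, beside the same shares of all genes. DESeq2 called 0, 2, 0 and 0 of the 8, beside 1454, 1723, 493 and 21 of the 16677 genes tested. Il6st, which encodes the shared chain gp130, had 156, 260 and 236 CPM in wild-type A5-negative and 155, 260 and 183 CPM in wild-type A5-positive libraries. The same libraries of RORgt-deficient mice had 282, 385 and 296 CPM and 206, 373 and 270 CPM. It rose with genotype in A5-positive cells only with the block (0.50 ± 0.11, edgeR quasi-likelihood, adjusted p = 0.0408, and 0.380 without it), a call that ended without any 1 of the 6 libraries (0.0698 to 0.162). Il11ra1, the receptor gene for IL-11, which has a near-identical copy that may share its reads, rose in A5-positive cells of RORgt-deficient mice with the block (0.75 ± 0.17, adjusted p = 0.0151, and 0.0973 without it), and that call ended without library 1 or 2 of the A5-negative or 1 or 3 of the A5-positive group (0.0512 to 0.0865). Lifr, the receptor gene for LIF, kept group means of 69.4 to 78.2 CPM.

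The 4 JAK kinase genes, which act between these receptors and STAT3, were all tested, and calls were made with the block alone (edgeR quasi-likelihood). With the block Jak2 fell in A5-positive cells of wild-type mice (-0.50 ± 0.13, adjusted p = 0.0262), where 5.59% of all genes did. Jak1 and Tyk2 fell with it in A5-positive cells of RORgt-deficient mice (-0.44 ± 0.11, adjusted p = 0.0240, and -0.37 ± 0.11, adjusted p = 0.0374), where 7.54% did. Jak2 rose with genotype in A5-positive cells (0.52 ± 0.13, 0.0463), where 2.26% did. Each of these calls ended on leaving out any 1 of at least 3 libraries (0.0502 to 0.181).

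A list of 16 regulators of this signalling held SOCS family, Pias and Ptpn genes. All 16 were tested and none passed without the block (edgeR quasi-likelihood), where 4, 1, 5 and 2 had an unadjusted p under 0.05 (20.5%, 21.8%, 15% and 5.09% of all genes). DESeq2 called 1, 1, 2 and 0 of the 16, beside 1454, 1723, 493 and 21 of the 16677 genes tested. With the block 2 fell in A5-positive cells in wild type and 1 in RORgt-deficient mice, against 5.59% and 7.54% of all genes, and 2 rose with genotype in A5-positive cells, against 2.26%. Cish, which encodes a SOCS family inhibitor of cytokine receptors, fell in A5-positive cells with the block in wild type (-0.57 ± 0.12, edgeR quasi-likelihood, adjusted p = 0.0115) and in RORgt-deficient mice (-0.50 ± 0.12, 0.0153), and it rose with genotype in A5-positive cells (0.58 ± 0.12, 0.0366). Without the block these p-values were 0.0552, 0.0662 and 0.178. The wild-type call ended without library 1 or 3 of the A5-negative or 1 or 2 of the A5-positive group (0.0513 to 0.0658), the RORgt-deficient one without library 1 of the A5-negative or 3 of the A5-positive group (0.0665 and 0.0857), and the genotype one without any of 5 of the 6 libraries (0.0742 to 0.161). Socs3, the inhibitor that STAT3 induces, had group means of 468 ± 50.6, 461 ± 68.7, 683 ± 118 and 554 ± 64.9 CPM in wild-type A5-negative, wild-type A5-positive, RORgt-deficient A5-negative and RORgt-deficient A5-positive cells. Its genotype difference in A5-negative cells was 0.55 ± 0.16, with no overlap, and it did not pass (adjusted p = 0.779, and 0.117 with the block).

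Of 15 genes that STAT3 is known to induce, 2 rose in A5-positive cells of RORgt-deficient mice, where 4.56% of all genes did. None rose in wild type without the block (edgeR quasi-likelihood). In wild type 4 had an unadjusted p under 0.05, against 20.5% of all genes. DESeq2 called 3 of the 15 in wild type, beside 1454 of the 16677 genes tested. With the block 2 rose and 2 fell in wild type, against 8.76% and 5.59% of all genes, and 3 rose and 1 fell in RORgt-deficient mice, against 10.1% and 7.54%. Birc5, which encodes survivin and is a gene of dividing cells, rose from 5.65 ± 1.82 to 25.7 ± 12.5 CPM (2.18 ± 0.42, adjusted p = 0.0103, edgeR quasi-likelihood). Timp1, a metalloproteinase inhibitor gene that fibroblasts also express, rose from 2.97 ± 2.92 to 21.3 ± 13.5 CPM (2.81 ± 0.70, adjusted p = 0.0359), beside the fibroblast marker sums given above. The Birc5 call ended without A5-negative library 2 (0.0550), and the Timp1 call without library 2 or 3 of the A5-negative or 1 or 3 of the A5-positive group (0.104 to 0.143). With the block 4 of the 15 rose with genotype in A5-positive cells, where 2.26% of all genes did, and none was called without it (edgeR quasi-likelihood). They were Mcl1, Cebpd, Myc and Pim1 (0.49 ± 0.11, 0.62 ± 0.15, 0.52 ± 0.13 and 0.99 ± 0.24). Each of these calls ended on leaving out any 1 of at least 5 of the 6 libraries (0.0697 to 0.2). Of the 15 estimates without the block, 11 were above 0. Bcl2l1 went the other way and lay lower in every RORgt-deficient library (-0.42 ± 0.13, edgeR quasi-likelihood, adjusted p = 0.207, and 0.0772 with the block).

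Of 12 genes that keratinocytes are known to induce with IL-22, 10 were tested, and 3 rose in A5-positive cells of wild-type mice, where 3.12% of all genes did, and all 3 were keratins of wounded epidermis. The median change of the 10 was 1.06 in wild type and 0.33 in RORgt-deficient mice, and -0.53 with genotype in A5-positive cells, beside 0.03, 0.00 and 0.00 over all genes tested. From A5-negative to A5-positive cells, Krt6a went from 503 ± 50.9 to 1938 ± 566 CPM, Krt16 from 677 ± 108 to 1449 ± 321 CPM and Krt6b from 63.5 ± 4.84 to 469.6 ± 228 CPM, with adjusted p = 0.00704, 0.0229 and 0.0402 (edgeR quasi-likelihood). In RORgt-deficient mice Krt6a rose (1.60 ± 0.32, adjusted p = 0.0113). Krt6a and Krt6b are near-identical genes, and the sources used here do not say how reads that match both were counted. The Krt6a call in wild type held without each single library, and the Krt6a call in RORgt-deficient mice ended without library 2 of the A5-negative or 1 of the A5-positive group (0.0625 and 0.0549). The Krt16 call ended without any wild-type library other than A5-positive library 2 (0.0504 to 0.101), and the Krt6b call without each of the 6 (0.0515 to 0.169). The antimicrobial gene S100a8, which neutrophils also express, had 3.24 ± 0.44 CPM in wild-type and 0.53 ± 0.24 CPM in RORgt-deficient A5-positive cells. It fell with genotype with the block (-2.63 ± 0.63, adjusted p = 0.0451, and 0.178 without it), a call that ended without any 1 of the 6 libraries (0.0575 to 0.198). Of 4 neutrophil markers, Cxcr2 was lower (7.11 to 11.3 CPM in these wild-type and 2.37 to 3.95 CPM in these RORgt-deficient libraries) and Csf3r was higher (0.437 to 0.57 and 0.853 to 1.31 CPM), each without overlap. Ly6g and Retnlg had 0 to 2 counts in these libraries, and the part of neutrophils in the result was not tested.

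Across the 12 libraries, the genes whose log2 levels were most like those of each member were found among 9070 or 9071 genes whose mean log2 CPM was 3 or more, as a description with no test, since the libraries share groups and numbers. Stat3 was most like Hlf, Brd2 and Ube2h (Pearson r = 0.995, 0.986 and 0.986) and Osmr most like Foxp1, Kmt5b and Senp2 (0.988, 0.982 and 0.980). Il19 was most like Sh2d5, Fscn1, which encodes the actin-bundling protein fascin, and Xdh (0.953, 0.950 and 0.949). Il6ra was most like Trim24 (0.961), Il22ra1 like Abcf3 (0.957), Il20rb like Lrrc61 (0.939), Il20ra like Usp28 (0.927), Il24 like Upp1 (0.910), Il10rb like Slfn2 (0.890) and Il6 like Rnps1 (0.866).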

How the data were processed

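RNA was measured in 12 libraries of sorted wound keratinocytes, 3 in each of 4 groups. Per the labels' protocols, libraries were made with SMART-Seq v4 and ThruPLEX kits. Per the submitters' processing notes, the tools were bcl2fastq, Trimmomatic 0.36, STAR and featureCounts, with build mm10 (GRCm38). For the annotation release, the strand setting and reads with several matches, the sources used here say nothing. The deposited table gives whole-number counts, not normalized, for each gene. Of its 55341 rows, 26 bore a date in place of a symbol and were left out (0.110% to 0.128% of counts). Positions and exon lengths came from GENCODE M21 by symbol.

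From the counts, edgeR 4.0.16 in R 4.3.3 was used with TMM factors (0.919 to 1.08), filterByExpr by group, 1 model of the 4 groups fitted to all 12 libraries, and quasi-likelihood tests. Benjamini-Hochberg adjustment ran over 16677 genes for each of 5 comparisons, and 0.05 was the threshold. The SE is the size of the log2 fold change over the square root of its F. Levels are TMM-scaled CPM, while marker sums use CPM of the total counts. The floor of 3 counts covers counting error alone, because these reads carry no molecular identifiers. The replicates are pools of mice, so a p-value reflects variation between libraries of pools, not between single mice. Without the block that variation includes what libraries of the same number share, and the 12 libraries are treated as independent. With the block the shared part is taken out.

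Residuals from group means over 9071 genes gave correlations of 0.153 to 0.722 in each of 18 pairs whose labels share a number (median 0.452), against a median of -0.24 and a maximum of 0.315 for 36 pairs with different numbers. The numbers were therefore taken to pair the libraries. Alternatives were RLE factors, DESeq2 1.42.0, no low-count filter, a filter of 5 CPM in 3 libraries, the block, the compared groups alone and leaving out each library, the last also with the block. After seeing the data, leaving out all libraries of 1 number and DESeq2 with the block were added. The fits were tested on simulated data.

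The 10 genes, the other lists and the tests were chosen with earlier results of these data known. The naming rule took the 10 genes in every comparison and, from each other list, the genes past the threshold or otherwise the 4 with the smallest p in a comparison. Not all of the latter are named in the text, and genes named for a call with the block alone were chosen after their values were seen. Some genes that the rule takes are not reported here.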

Additional observations from a re-analysis of the deposited data

How the results depend on the processing

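The number of the 10 genes called for A5 in wild type was 1 by edgeR, 2 by DESeq2, 2 with no low-count filter, 4 with the replicate block and 5 by DESeq2 with the block, and 0 to 3 on leaving out libraries. Of all genes, 575, 1454, 939, 2394 and 3530 were called in that order, and 38 to 2357 on leaving out libraries of the compared groups. These 5 fits tested 16677 genes, or 32335 with no low-count filter. In RORgt-deficient mice the number of the 10 genes was 1, 4, 5, 5 and 7 in that order, 0 with the compared groups alone and 0 to 6 on leaving out libraries. Of all genes, 921, 1723, 1210, 2937 and 3999 were called, 705 with the compared groups alone and 135 to 2960 on leaving out libraries of those groups. For genotype in A5-positive cells the number of the 10 genes was 0, 3 by DESeq2, 3 with the block, 5 by DESeq2 with the block and 0 to 2 on leaving out libraries. Of all genes, 1, 493, 670 and 2089 were called there in that order, and 1 to 705 on leaving out libraries of the compared groups. In A5-negative cells and for the interaction the number of the 10 genes stayed at 0 under every alternative run. These ranges cover each library left out singly and all libraries of 1 number left out, with and without the block. RLE factors and the stricter filter moved no count of the 10 genes. The causes were not tested.

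No called difference changed sign. Among differences that were not called, some near 0 did. Without a low-count filter the A5 difference of Il20ra in wild type was 0.000192 and the interaction of Il24 was -0.00392, and the latter was -0.00457 with the block. On leaving out libraries the A5 difference in wild type ran from -0.64 to 0.15 for Il10rb, -0.22 to 0.24 for Il20ra and -0.13 to 0.29 for Il6, and in RORgt-deficient mice from -0.15 to 0.10 for Il10rb. The genotype difference ran from -0.0525 to 0.34 for Il6ra and -0.00562 to 0.19 for Stat3 in A5-positive cells, and from -0.18 to 0.49 for Il10rb, -0.17 to 0.0438 for Il20rb and -0.62 to 0.31 for Il19 in A5-negative cells. The interaction ran from -0.0931 to 0.58 for Il10rb, -0.23 to 0.25 for Il24, -0.37 to 0.0498 for Il6ra, -0.0381 to 0.48 for Osmr and -0.14 to 0.0565 for Stat3. Il22ra1, with 230 to 622 counts per group, and Il19, with 281 to 1426, rest on the fewest counts of the 10 genes.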
